A study of Homo sapiens with 6 samples.

Results

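The matrix metalloproteases (MMP), the membrane-bound ADAM proteases, the secreted ADAMTS proteases and their tissue inhibitors (TIMP) were followed in PaTu8988t cells, an established human cell line of pancreatic ductal adenocarcinoma (PDAC), with and without *SAMD1*. Members were chosen by a rule on gene symbols, set with earlier results of these data known. It took MMP with a number and at most 1 letter, ADAM or ADAMTS with a number, and TIMP1 to TIMP4. This gave 66 of the 20347 genes in the table, of which 23 were MMP, 20 ADAM, 19 ADAMTS and 4 TIMP genes. RNA-seq was available for 3 replicates of the control cells, which had received the Lenti-CRISPR V2 plasmid with an unspecific guide RNA, and for 3 independent clones (named clone 1 to 3 here) in which the same plasmid carried guides against *SAMD1*. Both kinds of cell had thus been through CRISPR/Cas9 delivery, and single clones were selected with puromycin. No drug or time course entered the comparison, which asked how expression differs when SAMD1 is lost. Each *SAMD1* KO library is 1 clone, so differences between clones and between cultures cannot be told apart, and the sources used here do not say whether the control replicates came from separate clones. The p-values measure the spread between these libraries. The limma fit behind them uses a common variance per gene for both groups, although the control replicates were closer to each other than the clones were.

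Proteases of these families cut proteins outside the cell or at its surface. MMPs are zinc enzymes that degrade collagens and other matrix proteins. Most are secreted as inactive proenzymes, while the membrane-type MMPs stay anchored at the cell surface and can activate other MMPs there. ADAMs are anchored proteins, and those with an intact zinc-binding motif shed growth factors, cytokines and receptors from the membrane, whereas the others act in adhesion or as receptors. ADAMTS enzymes are secreted and cleave proteoglycans, trim procollagens or take part in microfibril assembly. TIMPs bind the active site of MMPs and of some ADAM and ADAMTS enzymes. In PDAC these genes are made by tumour cells and by the surrounding stroma, and a cell line shows the tumour cell share alone. SAMD1 is a chromatin protein that binds unmethylated CpG islands and prefers sequences with the letters GCGC.

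*SAMD1* itself had 2230.5, 2382.5 and 2299 normalized counts in control and 874.1, 1081.7 and 824.8 in the clones. Its log2 fold change was −1.32 (SE 0.10, adjusted p = 0.000724), so all 3 clones were below all control replicates, although transcripts remained. A normalized count is a read count divided by a size factor of its library, and the libraries held between 35589477 and 45172216 reads. Control replicates were much closer to each other (chi-square per degree of freedom of their read counts 2.66 to 5.22) than the clones were (50.35 to 58.15), and no 2 libraries were duplicates. Of 5 epithelial markers of the cell line, *KRT8*, *KRT18*, *KRT7* and *EPCAM* were detected, whereas *KRT19* had no reads in any library. The summed level of these markers, mostly *KRT8* and *KRT18*, ranged from 62681.2 to 65890.6 in control and from 67617 to 108553.3 in the clones. The log2 fold changes were 0.37 for *KRT8* (adjusted p = 0.195) and 0.52 for *KRT18* (adjusted p = 0.0598). *KRT7* was at 1.46 (adjusted p = 0.00392) and *EPCAM* at −0.06 (adjusted p = 0.804). Fibroblast markers summed to 52.8 to 55 in controls and 18 to 44.9 in clones, with 3 of 5 genes detected and *DCN* and *LUM* at 0. Immune markers, mostly *CD68*, summed to 357.4 to 376.7 and 250.5 to 333.7, with 3 of 4 detected and *CD3E* at 0. All 3 endothelial markers had reads and summed to 77.8 to 84.8 and 33.6 to 83.6. The part of these markers in the results below was not tested. The libraries are bulk RNA of a cell line, so reads of such markers do not by themselves show that other cell types were present. Bulk values also do not show whether a level differed in all cells or in some.

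Many members of the family were silent or nearly so in these cells. Of the 66 members, 13 had no reads in any library, 18 had reads but no more than 3 in any library, and 8 were above 3 reads somewhere but stayed under a mean of 10 normalized counts. The 27 tested members were 6 MMP, 11 ADAM, 8 ADAMTS and 2 TIMP genes, and none of them had a group mean under 10, so none passed through 1 group only. A gene was called when its log2 fold change was beyond 0.5 with an unadjusted p below 0.01, the cut-off of the study. Of the 27 tested members, 7 were called (25.9%), 5 higher and 2 lower in *SAMD1* KO cells, where 7.85% of all 12773 tested genes were called (5.77% higher and 2.08% lower). At an adjusted p below 0.05, 7 members passed with limma (25.9%, background 13%), all of them higher. None was lower at that level in the main limma fit or with edgeR and 1, *ADAMTS6*, with DESeq2. At an unadjusted p below 0.05, 4 were lower with each tool. The share of all tested genes that were lower at this unadjusted level was not taken, so this count has no background. For 12 members all clones lay outside the range of the control replicates (44.4%, background 37.8%). Of these, 8 were higher and 4 lower in the clones, where 19.2% of all tested genes were higher and 18.6% lower in this way. The median log2 fold change over the 27 members was 0.056, and over all tested genes it was −0.0059.

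**Figure D1:**
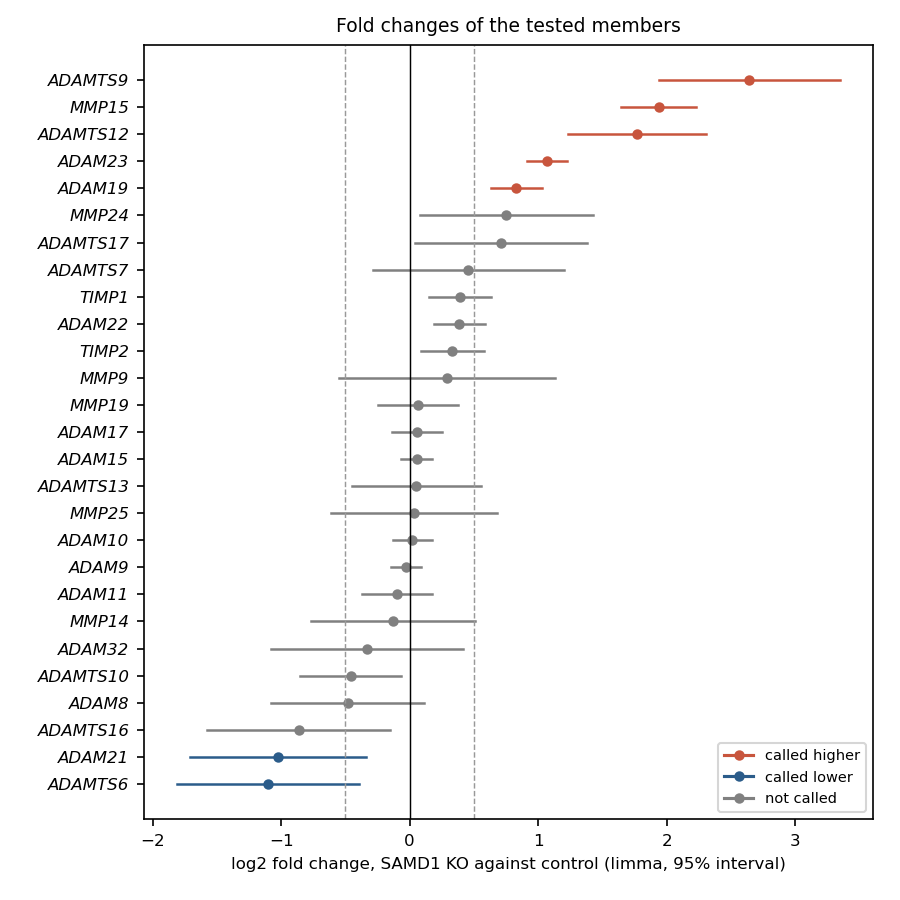
Log2 fold change, clones against control replicates (x axis), for each of the 27 tested members (y axis), with its 95% interval from limma. The dashed lines mark the fold change of the cut-off, and the 5 members called higher lie wholly to the right of the right-hand line.

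The promoters of the called members are shown first, since SAMD1 prefers GCGC. The 250 bases before the RefSeq start site (GRCh38.p14) are given 5′ to 3′ on the strand of the gene, in lower case with every GCGC in capitals. GCGC reads the same on both strands, and overlapping matches were counted separately. The windows lie at chr16:58025504-58025753 on the plus strand for *MMP15*, chr2:206443282-206443531 on the plus strand for *ADAM23*, chr5:157575776-157576025 on the minus strand for *ADAM19*, and chr5:33891991-33892240 on the minus strand for *ADAMTS12*. They are the windows found for members called higher. That of *ADAM21* (chr14:70451924-70452173, plus strand), called lower, is set beside them because it has no GCGC. As annotated here, *ADAM21* spans chr14:70417107-70460427, so its window lies within the gene, whereas the other windows shown lie at the gene starts. The sequence before that start of *ADAM21* was not examined, and the window of *ADAMTS6*, also called lower, is not shown.
MMP15: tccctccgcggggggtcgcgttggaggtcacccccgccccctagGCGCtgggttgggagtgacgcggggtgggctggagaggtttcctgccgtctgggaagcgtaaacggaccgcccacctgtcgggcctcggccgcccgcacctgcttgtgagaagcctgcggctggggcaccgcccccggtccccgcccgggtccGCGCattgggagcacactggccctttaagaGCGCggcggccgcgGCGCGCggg
ADAM23: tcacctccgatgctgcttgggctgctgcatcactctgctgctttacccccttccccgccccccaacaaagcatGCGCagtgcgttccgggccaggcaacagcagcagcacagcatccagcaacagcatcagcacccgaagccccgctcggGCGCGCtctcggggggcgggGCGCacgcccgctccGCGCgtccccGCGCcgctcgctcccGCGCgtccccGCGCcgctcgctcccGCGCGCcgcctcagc
ADAM19: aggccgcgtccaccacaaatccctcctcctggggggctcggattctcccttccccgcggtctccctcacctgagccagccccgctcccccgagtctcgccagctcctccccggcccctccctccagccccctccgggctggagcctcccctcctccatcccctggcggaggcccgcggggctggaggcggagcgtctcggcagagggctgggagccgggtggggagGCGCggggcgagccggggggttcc
ADAMTS12: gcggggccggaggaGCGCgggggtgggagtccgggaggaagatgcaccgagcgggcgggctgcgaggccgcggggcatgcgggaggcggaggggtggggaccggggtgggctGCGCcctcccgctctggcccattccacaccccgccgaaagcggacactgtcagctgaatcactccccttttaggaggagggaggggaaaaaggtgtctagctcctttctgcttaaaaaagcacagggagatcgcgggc
ADAM21: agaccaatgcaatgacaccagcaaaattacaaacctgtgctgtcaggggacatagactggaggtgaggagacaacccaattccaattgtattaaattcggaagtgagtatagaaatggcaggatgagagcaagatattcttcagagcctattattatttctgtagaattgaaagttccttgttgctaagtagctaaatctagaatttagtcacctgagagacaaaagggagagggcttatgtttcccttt

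GCGC occurred 10 times in the window of *ADAM23*, 5 times in *MMP15*, 2 times in *ADAMTS12* and 1 time in *ADAM19*. *ADAMTS6*, called lower, had 1, and *ADAM21* had 0. All 4 windows of members called higher held the motif, with a median of 3.5 matches, but so did 10 of 13 windows (76.9%) of tested members that were not called, with a median of 4. Among all RefSeq windows 53.4% of 35116 held it. Tested members had it in 15 of 19 windows (78.9%) and members that were not tested in 38.1%. The motif in this window therefore did not set the called members apart from the other expressed ones. Only 39 of the 66 members had a window in the table, and *ADAMTS9* and *TIMP2* had none. SAMD1 binding was not analysed here.

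Among the MMPs, *MMP15* stood out. It encodes a membrane-type MMP (MT2-MMP) that works at the cell surface, and lies at chr16:58025754-58046901. The control replicates had 282.5, 282.8 and 232.5 normalized counts, and the clones had 1024.4, 1140.4 and 897.7. All 3 clones were more than 3 times above the highest control replicate. The mean rose from 266 ± 28.9 (SD, n = 3) to 1021 ± 121, a 3.84-fold difference with a log2 fold change of 1.94 (SE 0.12, 95% interval 1.64 to 2.23, adjusted p = 0.00034). *MMP15* was the only MMP called out of 6 tested.

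The study had designed primers for *MMP15*, and the pair used for chromatin at its promoter was placed on GRCh38 because it marks the stretch examined there. The forward primer lies at chr16:58025606-58025625 on the plus strand, within the window above, and the reverse primer at chr16:58025819-58025838 on the minus strand.
ChIP forward: gtaaacggaccgcccacctg
ChIP reverse: gagagagcaagcgagccagc
The product spans 233 bases, from 148 before the start site to 84 after it, and contains 7 GCGC matches.

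The other membrane-type MMPs were much lower and did not pass the cut-off. *MMP24* had 22.9, 39.1 and 26.3 normalized counts in control and 53.4, 59.6 and 36.9 in the clones, with overlapping groups and a log2 fold change of 0.75 (SE 0.29, adjusted p = 0.133). *MMP14*, which encodes MT1-MMP, the main activator of proMMP2, stayed at 13.7, 16.6 and 16 against 16.8, 13 and 12.6. Its log2 fold change of −0.13 had an interval from −0.77 to 0.51, so it reached past the cut-off in both directions. *MMP25* was at 0.03 (interval −0.61 to 0.68), and *MMP16* and *MMP17* had no reads. *MMP19*, a secreted MMP of basement membranes, was the highest MMP per kb in control cells and had 242.5, 268.1 and 210.8 counts against 260.1, 268.7 and 224, a log2 fold change of 0.06 (interval −0.25 to 0.38).

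Gelatinases, collagenases, stromelysins and matrilysins, the secreted classes best known from invasion, were barely expressed. *MMP9*, the gelatinase B gene, had 19.4, 12.7 and 12.6 normalized counts in control and 18.8, 12.1 and 26.1 in the clones. Its log2 fold change was 0.29 with an interval from −0.55 to 1.13, which allows either direction. *MMP2*, the gelatinase A gene, had at most 1 read in a library. *MMP1*, the interstitial collagenase gene, had 2 to 5 reads per control library and 1 to 3 per clone, and *MMP7*, the matrilysin gene, had none. The 9 MMP genes on chromosome 11 from *MMP7* to *MMP13*, which include collagenases and stromelysins, were all under the level for testing.

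Scaled to transcript length and summed, the MMPs amounted to 192.5, 215.6 and 162.8 normalized counts per kb in control replicates and 387.8, 432.8 and 341.1 in the clones. *MMP15* alone made up 34.5 ± 2.0% (SD, n = 3) of this sum in control cells and 64.9 ± 0.13% in the clones. *MMP19* accounted for 39.1 ± 0.81% and 20.1 ± 0.79%. On this per kb scale *MMP15* was below *MMP19* in all 3 control replicates and above it in all 3 clones.

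**Figure D2:**
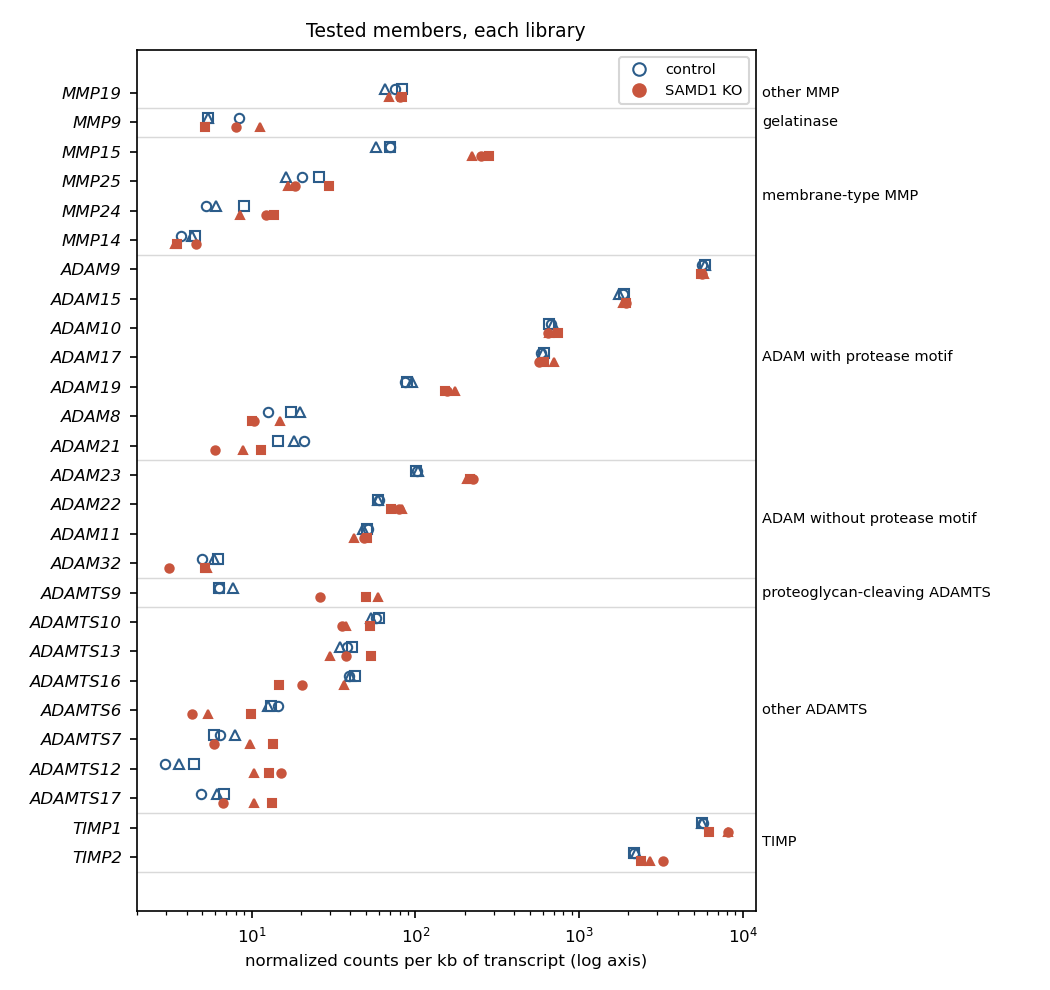
Normalized counts per kb of transcript (x axis, log scale) of each of the 27 tested members (y axis, by role) in the 3 control libraries (open symbols) and the 3 *SAMD1* KO clones (filled symbols). Circles, squares and triangles are libraries 1, 2 and 3, and the clones of *MMP15*, *ADAM23*, *ADAM19*, *ADAMTS9* and *ADAMTS12* lie to the right of all control libraries.

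ADAMs with a protease motif were the most abundant proteases of the set, and the major sheddases differed little. *ADAM9* had 23167.8, 24286.3 and 23966.7 normalized counts in control and 23240.3, 22967.2 and 23895.1 in the clones. It made up 62.7% of the ADAM sum per kb in control and 60.3% in the clones. *ADAM10*, which cleaves Notch receptors and cadherins, had 7460.3, 7294.1 and 7701 against 7241.2, 8251.6 and 7320.7. *ADAM17*, the TNF-converting enzyme, had 2578.3, 2693.6 and 2642.6 against 2481.9, 2693.8 and 3086.9. The groups overlapped for all 3 genes. Their log2 fold changes were −0.03 (interval −0.15 to 0.09), 0.02 (−0.13 to 0.17) and 0.06 (−0.14 to 0.25), so each interval stayed inside the cut-off of 0.5. The same held for *ADAM15*, *ADAM11* and *MMP19*, which makes 6 of the 20 uncalled tested members.

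*ADAM19* (meltrin β), a sheddase of neuregulins, was the only ADAM with a protease motif called higher. It had 560.5, 573.4 and 620.8 normalized counts in control and 1010.6, 981.4 and 1131.5 in the clones. The mean went from 585 ± 31.8 to 1041 ± 79.6 (SD, n = 3), a 1.78-fold difference with a log2 fold change of 0.83 (SE 0.09, adjusted p = 0.0018). The gene lies at chr5:157395534-157575775.

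*ADAM21*, an ADAM with a protease motif that is known from testis, was called lower at low counts. Control replicates had 54.9, 38.2 and 48.1 normalized counts and clones had 15.8, 30.2 and 23.4, so the groups did not overlap. The log2 fold change was −1.02 (SE 0.29, unadjusted p = 0.00915, adjusted p = 0.0613). The call was lost without any 1 of control replicates 1, 2 and 3 or of clones 1 and 3 (log2 fold change −0.78 to −1.16), and with edgeR and DESeq2. The pseudogene *ADAM20P1* overlaps *ADAM21* on the opposite strand, and the strand setting of the counting is not given in the sources used here.

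The ADAMs without a protease motif were led by *ADAM23*. This gene, which encodes a neuronal adhesion protein that binds integrins and LGI proteins, had 642.9, 642.8 and 660.9 normalized counts in control and 1425.9, 1356.4 and 1301.5 in the clones. The mean rose from 649 ± 10.4 to 1361 ± 62.3 (SD, n = 3), which is 2.10-fold, with a log2 fold change of 1.07 (SE 0.07, adjusted p = 0.000334). The gene lies at chr2:206443532-206621127. Its relative *ADAM22*, an LGI1 receptor, had 568.5, 562.6 and 557.8 against 758.4, 670.4 and 784.3. *ADAM22* did not reach the fold change of the cut-off, but the groups did not overlap and the log2 fold change of 0.39 (SE 0.09) had an adjusted p of 0.0277. The adjusted p was above 0.05 when any 1 control replicate was left out (up to 0.124). *ADAM11* and *ADAM32* had log2 fold changes of −0.10 and −0.33 with overlapping groups.

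Among the ADAMTS genes, *ADAMTS9* showed the largest difference of the tested members. It encodes a secreted protease that cleaves versican and aggrecan, and lies at chr3:64515654-64688000. The control replicates had 48, 47.9 and 58.4 normalized counts and the clones 197.8, 381.9 and 453.3. Every clone was more than 3 times above every control replicate, but clone 1 was well below the other two. The mean went from 51.5 ± 6.02 to 344 ± 132 (SD, n = 3), a 6.69-fold difference with a log2 fold change of 2.64 (SE 0.30, interval 1.94 to 3.35, adjusted p = 0.00261). Its share of the ADAMTS sum per kb was 3.84 ± 0.60% in control and 22.8 ± 6.27% in the clones. *ADAMTS9-AS1* and *ADAMTS9-AS2* overlap it on the opposite strand. *ADAMTS9* was the only tested gene of the 7 proteoglycan-cleaving ADAMTS genes. Of the others, *ADAMTS15* had 11 to 12 reads per control library and 2 to 10 per clone, *ADAMTS1*, *ADAMTS4*, *ADAMTS8* and *ADAMTS20* had no more than 3 in any library, and *ADAMTS5* had none.

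*ADAMTS12*, which cleaves cartilage oligomeric matrix protein, rose from a low level. It had 25.2, 38.2 and 30.9 normalized counts in control and 129.5, 108.9 and 89 in the clones, with no overlap. The mean went from 31.4 ± 6.51 to 109 ± 20.2 (SD, n = 3), 3.47-fold, with a log2 fold change of 1.77 (SE 0.23, adjusted p = 0.00411). It lies at chr5:33523535-33892019.

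*ADAMTS6*, a protease linked to fibrillin microfibrils, was called lower. It had 106.4, 95.9 and 91.6 normalized counts in control and 31.6, 72.6 and 39.6 in the clones, with no overlap and with clone 2 nearest to the controls. The log2 fold change was −1.10 (SE 0.30, unadjusted p = 0.00751, adjusted p = 0.0544). The call was lost when any 1 of control replicates 1, 2 and 3 or of clones 1 and 3 was left out (log2 fold change −0.85 to −1.15), and with edgeR, while without clone 2 the value was −1.44 (adjusted p = 0.00636). *ADAMTS10*, its closest relative, had 243.6, 255.4 and 227.9 against 152.3, 224.6 and 159.2, again with no overlap and with clone 2 nearest to the controls. Its log2 fold change of −0.46 (adjusted p = 0.12) was called only without clone 2 (−0.63).

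*ADAMTS16*, another secreted ADAMTS protease gene, had 194.5, 213.3 and 198.2 normalized counts in control, and 100.9, 73.4 and 181.7 in the clones. All clones were below all controls, but clone 3 was close to them. The log2 fold change was −0.86 (SE 0.30, adjusted p = 0.109), and it was called only when clone 3 was left out (−1.22). *ADAMTS17* (0.71, adjusted p = 0.146, called only without clone 1), *ADAMTS7* (0.46) and *ADAMTS13*, the von Willebrand factor protease gene (0.05), had overlapping groups. The procollagen-processing genes *ADAMTS2*, *ADAMTS3* and *ADAMTS14* were not tested. *ADAMTS2* had at most 2 reads and *ADAMTS3* at most 1 read in a library, and *ADAMTS14* had 3 to 7 reads per control library and 8 to 13 per clone.

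**Figure D3:**
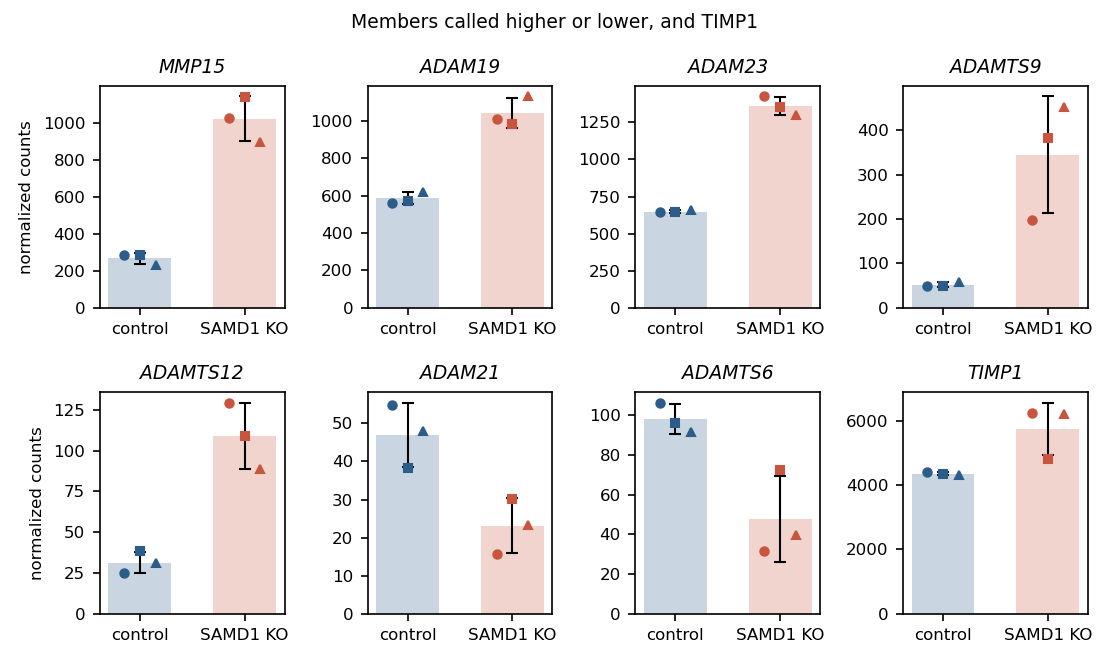
Normalized counts of the 7 called members and of *TIMP1* in control cells and *SAMD1* KO clones. Bars are means, error bars are SD (n = 3), and circles, squares and triangles are libraries 1, 2 and 3. No clone overlaps a control library in any panel, and the clones of *ADAMTS9* run from 197.8 to 453.3.

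TIMP transcripts were far above those of the MMPs. Per kb of transcript they summed to 7848 ± 57.8 normalized counts in control and 10244 ± 1437 (SD, n = 3) in the clones, against 190 ± 26.5 and 387 ± 45.8 for the MMPs. Nearly all of it came from *TIMP1*, which inhibits most soluble MMPs, and *TIMP2*, which also takes part in proMMP2 activation with MT1-MMP. *TIMP1* had 4408.4, 4339.3 and 4310.4 normalized counts in control and 6221.7, 4795.8 and 6208.1 in the clones. Its log2 fold change of 0.39 (SE 0.10) had an adjusted p of 0.0481 and did not reach the cut-off, except when clone 2, the lowest clone, was left out (0.51). When 1 of the control replicates or clone 1 or 3 was left out, the adjusted p lay between 0.0743 and 0.165. *TIMP2* had 7938.4, 7848.9 and 8176.4 against 11806.6, 8678.4 and 9936.3, a log2 fold change of 0.33 (SE 0.11, adjusted p = 0.0823). For both genes all clones were above all control replicates. *TIMP3* had no reads and *TIMP4* at most 2 in a library.

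The genes around a member did not always stay level in a clone. For each member, the median difference of its 40 nearest tested genes was taken in each clone. Near *TIMP1* on chromosome X this median was 0.37, 0.41 and 0.40 (log2) in clones 1 to 3, where *TIMP1* itself was at 0.52, 0.14 and 0.51. With the regional median removed, the log2 fold change of *TIMP1* was −0.0079 (adjusted p = 0.967), so its difference was no larger than that of the genes beside it. In clone 2 the genes near *ADAM19* and *ADAMTS6* on chromosome 5 were lower, with medians of −0.62 and −0.65, against −0.06 to −0.09 in the other clones. Near *ADAMTS16* and *ADAMTS12*, also on chromosome 5, the medians in clone 2 were −0.38 and −0.29. With the regional median removed, *ADAMTS16* was at −0.66 (adjusted p = 0.119). The log2 fold change of *ADAM19* was 1.07 with the regional median removed, while *ADAMTS6* was at −0.83 and no longer called (adjusted p = 0.204). *MMP15*, *ADAM23*, *ADAMTS9* and *ADAMTS12* stayed called, at 2.07, 0.89, 2.52 and 1.87. *ADAM21* also stayed called, as lower, at −1.09 (adjusted p = 0.0391). *ADAMTS10* was at −0.45 (adjusted p = 0.0451), short of the fold change of the cut-off.

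**Figure D4:**
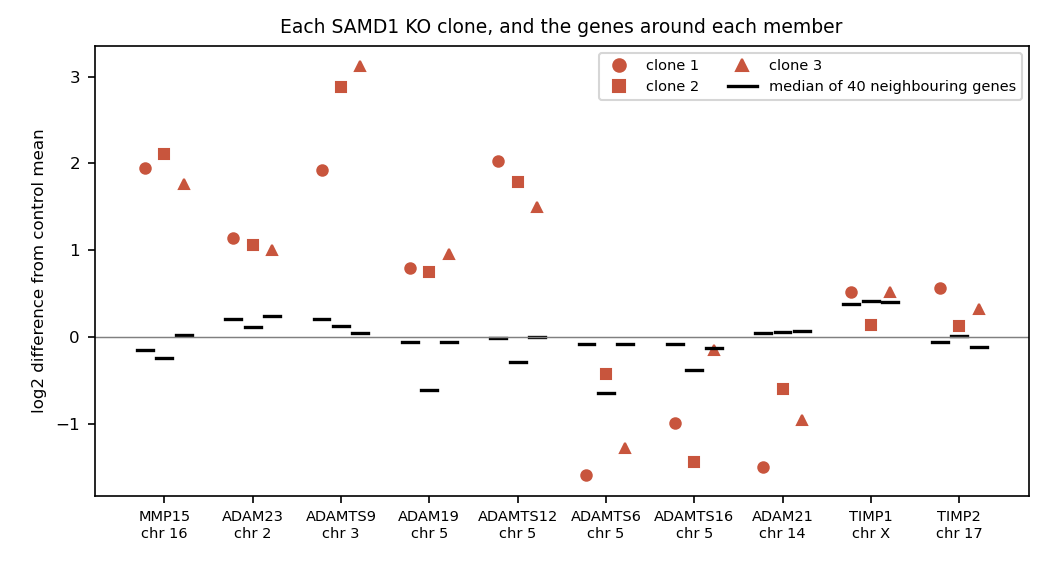
Log2 difference from the control mean (y axis) of 10 members in each *SAMD1* KO clone (points), with the median of the 40 nearest tested genes in the same clone (black bars). *MMP15*, *ADAM23*, *ADAMTS9*, *ADAM19* and *ADAMTS12* lie above the genes around them in all 3 clones. *TIMP1* lies above them in clones 1 and 3 and below them in clone 2.

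A list of 53 genes that activate, inhibit or work beside these proteases (proprotein convertases, the plasminogen system, tetraspanins, other matrix proteases and inhibitors) was followed as well. Of these 34 could be tested, 2 were called higher (5.88%, background 5.77%) and 0 lower, and 4 were higher (11.8%, background 13% in either direction) and 0 lower at an adjusted p below 0.05 with limma. By edgeR 0 were lower at that level and by DESeq2 2 (*BSG* and *SPINT2*). At an unadjusted p below 0.05 limma had 4 lower, edgeR 4 and DESeq2 5, again without a share over all tested genes. What the 2 called genes do to the proteases in these cells was not tested. *PLAU*, the gene of urokinase, which makes plasmin from plasminogen, had 30173.9, 28893.7 and 31838.3 normalized counts in control and 44605.9, 44650.5 and 48807.4 in the clones, a log2 fold change of 0.60 (SE 0.07, adjusted p = 0.00236). *TSPAN5*, a tetraspanin that escorts ADAM10 to the surface, had 571.9, 522.5 and 530.4 against 1400.2, 970.2 and 929.1, a log2 fold change of 1.00 (SE 0.16, adjusted p = 0.00802). All clones lay above all control replicates for both. *PCSK6*, a proprotein convertase gene, and *LRP1*, which clears proteases by endocytosis, were also past an adjusted p of 0.05, with log2 fold changes of 0.40 and 0.33. Without clone 1 the called genes numbered 5, with *DPP4*, *PCSK5* and *TLL2* added. The groups did not overlap for 16 partner genes (47.1%, background 37.8%), 11 higher (background 19.2%) and 5 lower (background 18.6%). The membrane inhibitor *RECK* (−0.19, adjusted p = 0.094) and the inhibitor *SPINT2* (−0.38, adjusted p = 0.0632) did not pass with limma.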

How the data were processed

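RNA was sequenced from 3 control replicates and 3 *SAMD1* KO clones of PaTu8988t (TruSeq Stranded mRNA). The authors used RNA-STAR and the GenCode 43 human transcriptome for alignment, and their processing notes name featureCounts, DESeq2 and hg38. The strand setting of the counting is not given in the sources used here. The signal deposited by the authors is a normalized count per gene and library, that is a read count divided by a DESeq2 size factor. In each library 100% of values were whole multiples of 1 step (tolerance 0.01 reads), so whole reads were recovered. A deposited table of the authors' own DESeq2 comparison (fold changes, errors and p-values) was not used, and 0 sample columns were left unused.

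Genes with a mean of at least 10 normalized counts (12773) were compared with limma 3.58.1 (lmFit, eBayes with trend, two-sided) in R 4.3.3 on log2(normalized count + 1), which understates changes of low genes. P-values were adjusted by Benjamini and Hochberg's method over every tested gene. With 3 libraries a group, exact permutation p-values stop at 0.1, so none are given. The alternatives were pseudocounts of 0.1 and 10, no filter or a mean of at least 50, scaling by the 75th percentile, edgeR 4.0.16 and DESeq2 1.42.0 on the recovered reads, the replicate number as a block, an adjusted p below 0.05 in the cut-off, removal of the median of the 40 nearest tested genes, and leaving out each library. Both the depth of a library and the number of libraries limit the precision, and counting error was not separated from the spread between libraries. Gene positions and transcript lengths are from GENCODE 44 (GRCh38), and promoter windows are from RefSeq. ADAMs were put in the groups with and without a protease motif from textbook knowledge.

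The members and lists were chosen with earlier results of these data known. Named were all called members, members past an adjusted p of 0.05 or with groups that do not overlap beyond the fold change of the cut-off, the TIMPs, *MMP1*, *MMP2*, *MMP7*, *MMP9*, *MMP14*, *MMP15*, *ADAM10*, *ADAM17*, the procollagen-processing ADAMTS genes, the highest tested member per kb of each role, called partner genes and *SAMD1*. Other members and partner genes named in the text, such as *ADAMTS17*, *MMP24*, *PCSK6*, *LRP1*, *RECK* and *SPINT2*, are not covered by this rule and were picked with their values in view. Of the fits, only the main limma fit was run on simulated data, in which 200 genes were changed 2-fold. It recovered 198 of them and called 38 other genes. Both groups were simulated with the same spread, unlike the control replicates and clones here. Other steps used Python 3.11.15.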

Additional observations from a re-analysis of the deposited data

How the results depend on the processing

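The 5 members called higher (*MMP15*, *ADAM23*, *ADAM19*, *ADAMTS9* and *ADAMTS12*) were called under all 15 settings with the unadjusted p, and their highest adjusted p was 0.00546, 0.00628, 0.0193, 0.0217 and 0.0286. The 2 members called lower were less stable. Their number was 1 with a mean of at least 50, 1 with 75th percentile scaling, 1 with DESeq2, 1 with the regional median removed, 0 with edgeR and 0 with an adjusted p below 0.05. With edgeR the 2 lost were *ADAM21* and *ADAMTS6*. Leaving out 1 library at a time gave 0 to 3 members called lower, with 0 without any 1 control replicate or without clone 1, and gave 2 to 5 partner genes called higher, with 5 without clone 1. Reversed were *TIMP1* at −0.0079 with the regional median removed, *ADAM10* at −0.0396 without clone 2 (highest 0.0547, without clone 1), *ADAM17* at −0.0287 without clone 3 (highest 0.129, without clone 1) and *MMP19* at −0.0275 without control replicate 3 (highest 0.145, without control replicate 2). The cause was not tested. Deviations of control replicates and clones with the same replicate number had correlations of 0.039, 0.134 and 0.032, and 5 of 6 samples correlated best with their own number. Whether the numbers mark shared handling was not tested. With the replicate number as a block, 1 member was called lower, *ADAM21* being lost. Of 333 values of named genes under the alternatives, 308 kept direction and call, 18 lost the call, 3 gained it and 4 reversed. Scaling by the 75th percentile shifted the median of all genes by 0.0191. The 39 members that were not tested lay under the mean count required for a test. Whether more depth would bring any of them above it was not tested.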

Other observations

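Among the members too low for the test, a fit of all genes with reads gave *ADAMTS15* a log2 fold change of −1.29 (adjusted p = 0.136) and *MMP23B* 1.18 (adjusted p = 0.0965), and neither passed an adjusted p of 0.05. *ADAMTS15* had 11 to 12 reads per control library and 2 to 10 per clone, and *MMP23B* had 1 to 2 and 4 to 7, so the groups did not overlap for either gene. *MMP11*, a stromelysin gene known from tumour stroma, had 5 to 9 reads per control library and 10 to 16 per clone.

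Several partner genes outside the cut-off had groups that did not overlap. The largest fold change of these was that of *TLL2*, at 1.06 (adjusted p = 0.0646). It had 16, 11.7 and 17.2 normalized counts in control and 23.7, 31.1 and 44.1 in the clones. *TLL2* was called with edgeR, with 75th percentile scaling, with the regional median removed and without clone 1. *TSPAN33*, another tetraspanin that partners with ADAM10, had a log2 fold change of 0.38 (adjusted p = 0.0546). Of the other tetraspanins on the list, *TSPAN14* was at 0.25 (adjusted p = 0.134) and *TSPAN17* at −0.18 (adjusted p = 0.19), both without overlap. *TSPAN15* was at 0.09 with overlapping groups, and *TSPAN10* was not tested. *BMP1*, the procollagen C-proteinase gene, was at 0.33 (adjusted p = 0.111), and *CTSB*, the cathepsin B gene, at 0.30 (adjusted p = 0.122). *BSG*, which encodes an inducer of MMPs, was at −0.19 (adjusted p = 0.0728).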
